A study of Mus musculus with 6 samples.

Results

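The nuclear genes of oxidative phosphorylation were compared between the hippocampus of DBA/2 mice and that of C57BL/6 mice. Members were chosen by gene symbol: subunits of complex I (Nduf genes), complex II (Sdha to Sdhd), complex III (Uqcr genes), complex IV (Cox4 to Cox8 genes) and ATP synthase (Atp5 genes). Of 51912 genes in the deposited table, 100 matched these patterns and 8 were left out, namely Cox7a2l, antisense genes and named pseudogenes. The remaining 92 members are 82 structural subunits and 10 assembly or associated factors (Ndufaf1 to Ndufaf8, Atp5s and Atp5sl).

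Hippocampus of DBA/2 mice gave 3 RNA sequencing libraries, and that of C57BL/6 mice, against which they were set, also gave 3. Both are inbred strains, and no treatment or introduced allele is labelled in either. Per the labels, total RNA came from frozen hippocampus, and libraries were made with an NEBNext Ultra kit for Illumina sequencing. The sources used here state no sex, age or substrain. The labels also leave unclear whether a library is 1 animal or a pool, so each p-value rests on the spread between libraries, part of which may be technical.

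Oxidative phosphorylation is the chain of reactions in the inner mitochondrial membrane that makes most of the ATP of neurons. Complex I takes electrons from NADH and complex II from succinate, complex III passes them by way of cytochrome c to complex IV, which reduces oxygen, and ATP synthase (complex V) uses the proton gradient that complexes I, III and IV build. A few membrane subunits of complexes I, III, IV and V are made inside the mitochondrion from its own genome. All others, including every subunit of complex II, come from nuclear genes, of which those that match the symbol patterns are described here.

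Total counts were 13839366 to 16912153 in DBA/2 libraries and 13867280 to 20185683 in C57BL/6 libraries. The strains lay apart on the first principal component of log2 expression, which held 72.3% of the variance. Markers of hippocampal subfields (Prox1, Dsp, Wfs1, Fibcd1, Zbtb20 and Neurod6) were present in all libraries, with summed levels of 1281 to 1313 CPM (counts divided by library size, on 1 scale for all libraries) in DBA/2 and 1122 to 1134 CPM in C57BL/6. Markers of other cells or neighbouring tissue also differed. The summed level of 10 oligodendrocyte markers was 4677 to 6316 CPM in DBA/2 and 6962 to 8702 CPM in C57BL/6, and that of 12 thalamus and habenula markers was 228 to 304 CPM in DBA/2 and 440 to 621 CPM in C57BL/6. Microglia markers, 10 in all, summed to 295 to 321 CPM in DBA/2 and 395 to 427 CPM in C57BL/6, and 8 ependyma markers to 30.8 to 48.7 CPM in DBA/2 and 48.4 to 60.6 CPM in C57BL/6, where the strains overlap. The 10 astrocyte markers summed to 5205 to 5770 CPM in DBA/2 and 5100 to 5375 CPM in C57BL/6, also with overlap. Overlap was also seen for 10 choroid plexus markers, at 1735 to 3731 CPM in DBA/2 and 1144 to 2341 CPM in C57BL/6. So it was for 10 endothelium markers, at 238 to 290 CPM in DBA/2 and 189 to 268 CPM in C57BL/6. The 13 neuron markers overlapped too, at 9063 to 9423 CPM in DBA/2 and 8926 to 9362 CPM in C57BL/6. None of these markers was at 0 in all libraries. Over all genes tested, 13.7% fell in DBA/2 and 9.09% rose. Markers that fell were 2 oligodendrocyte, 5 thalamus and habenula, 7 microglia, 3 ependyma, 6 astrocyte, 3 neuron and 1 endothelium markers. Those that rose were 2 astrocyte, 2 endothelium and 3 hippocampal subfield markers, and choroid plexus markers did neither. Their part in the results below was not tested, and in whole tissue fewer cells of a type and less RNA per cell cannot be told apart. Xist had 3214 and 6995 counts in C57BL/6 replicates 1 and 3, 1 count in C57BL/6 replicate 2 and 2 to 12 counts in DBA/2, while the Y-linked gene Ddx3y had 837 to 1323 counts in DBA/2 and 996 to 1048 counts in C57BL/6. Results that change without these 2 C57BL/6 libraries are named below, since the labels do not say how both transcripts came to be in them.

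Most nuclear oxidative phosphorylation genes were at nearly the same level in both strains, and a few stood apart. Of the 92 members, 87 had enough counts to be tested. Cox7c fell to 0.282 times its C57BL/6 level, Uqcrc1 was 2.31 times as high in DBA/2, and Ndufc2, Ndufaf7 and Sdhc fell by less. In all, 4 members rose and 12 fell in DBA/2 (edgeR's quasi-likelihood test, Benjamini-Hochberg adjusted p under 0.05 over 17517 genes). The 4 that rose are Uqcrc1, Uqcrb, Cox5a and Ndufaf4. The 12 that fell are Cox7c, Ndufc2, Ndufa12, Ndufaf7, Sdhc, Atp5j2, Ndufaf2, Ndufa4l2, Atp5h, Cox6a2, Cox8a and Ndufb7. These counts are 4.6% of tested members higher and 13.8% lower, against a background over all genes tested of 9.09% higher and 13.7% lower. Taking both directions, 18.4% of tested members and 22.8% of all genes tested passed.

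Differences within the members were small in size. Their median log2 fold change was -0.04, against 0.00 for all genes tested, and the median of its absolute value was 0.063 against 0.150. Of 87 tested members, 61 (70.1%) lay within 0.1 of 0 on the log2 scale, as did 37.2% of all genes tested. Without overlap between the libraries of the strains were 21 members (24.1%), against 36.8% of all genes tested. Members had a median level of 55.1 CPM and all genes tested one of 17.6 CPM, so the members were measured with more counts.

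A missed threshold does not show equal levels, so the interval of each fold change was read for the 71 members that did not pass. For 57 of them the 95% interval lay within 0.25 of 0 on the log2 scale. The widest bounds belonged to sparsely expressed genes, at 0.79 for Cox6b2 and -1.25 for Cox4i2.

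**Figure D1:**
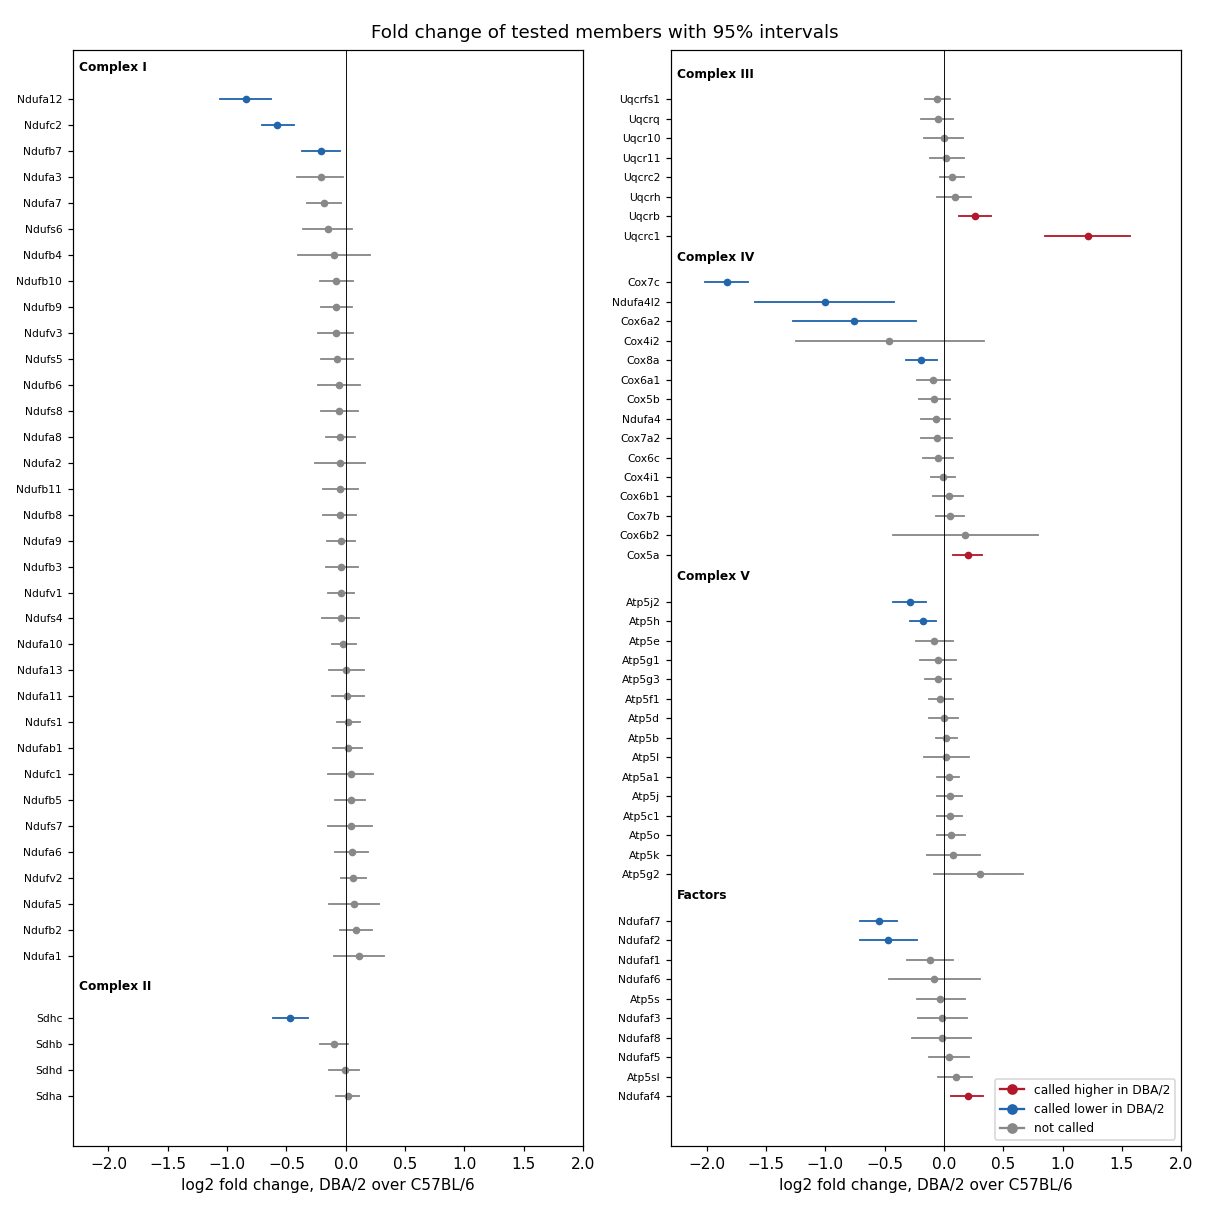
Log2 fold change (DBA/2 over C57BL/6, x axis) of the tested members by complex, as points with 95% intervals, 1 member left out; red marks an adjusted p under 0.05 and higher in DBA/2, blue the same and lower, grey the rest. Most points sit close to 0, with Cox7c at -1.83 and Uqcrc1 at 1.21 at the ends.

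For 9 members, reads could be shared with 12 near-identical gene copies elsewhere in the genome, and for Ndufa12 the result changed when the copy was included. Ndufa12 is an accessory subunit of the peripheral arm of complex I, at chr10:94198720-94221443 on the plus strand (GRCm38, GENCODE M21). Its copy Gm15920, annotated as a processed pseudogene, lies at chr5:130188395-130188796. The 402 bases of the copy align to positions 127 to 528 of the Ndufa12 transcript with 2 differences (99.5% identity), so most short reads from that stretch would match both. The differences are A225G and T504C, counted from 1 at the 5′ end of the Ndufa12 transcript, with the Ndufa12 base first and the copy's base last. In these GRCm38 transcripts, the 2 differences are the only positions at which a read from the shared part tells the genes apart. The DBA/2 sequence of either gene was not examined. The stretches of 41 bases around each difference, all within the coding part of Ndufa12, are shown, and capitals mark the differing base.
Ndufa12 around position 225: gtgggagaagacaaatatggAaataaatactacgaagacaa
Gm15920 at the same place: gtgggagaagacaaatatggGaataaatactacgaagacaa
Ndufa12 around position 504: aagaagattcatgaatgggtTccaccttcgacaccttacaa
Gm15920 at the same place: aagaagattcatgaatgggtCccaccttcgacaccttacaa

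As counted by the authors, Ndufa12 had 10.1, 9.83 and 10.3 CPM in DBA/2 libraries, against 16.6, 19.5 and 18.2 CPM in C57BL/6 libraries. All DBA/2 libraries lay below all C57BL/6 libraries, and the log2 fold change was -0.84 (standard error 0.10, edgeR adjusted p = 1.19e-06). Gm15920 went the other way, with 28.1, 25.5 and 31.2 CPM in DBA/2 libraries and 22.5, 20 and 19.7 CPM in C57BL/6 libraries (log2 fold change 0.44, edgeR adjusted p = 0.000535). Summed over both genes the level was 38.4 ± 3.05 CPM in DBA/2 and 38.8 ± 0.902 CPM in C57BL/6 (SD, n = 3 each). The summed log2 fold change was -0.02 (edgeR adjusted p = 0.907), so the fall of Ndufa12 did not hold when the reads of the pair were added up. With every family of near-identical genes summed in this way, 4 members rose and 9 fell, against a background of 8.84% higher and 13.6% lower.

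**Figure D2:**
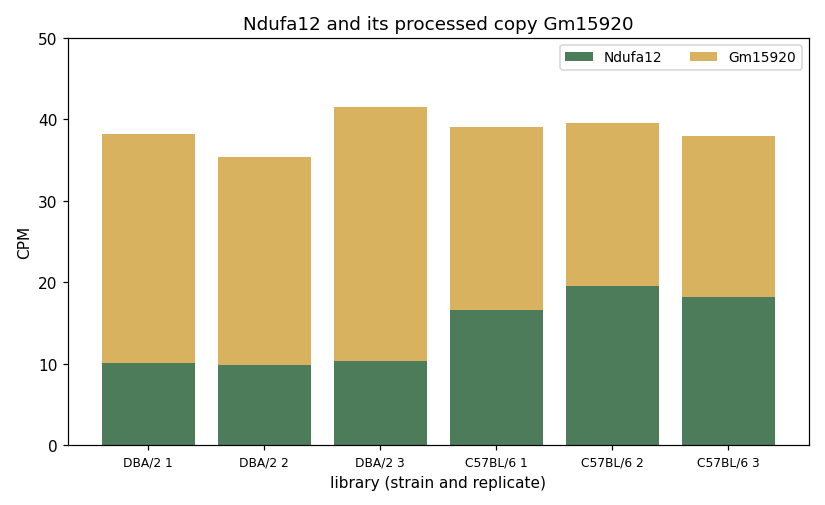
Stacked levels in CPM (y axis, from 0) of Ndufa12 and of its processed copy Gm15920 in each of the 6 libraries, DBA/2 on the left. The Ndufa12 part is 9.83 to 10.3 CPM in DBA/2 and 16.6 to 19.5 CPM in C57BL/6, while the stacks of the strains reach similar heights.

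Complex I, the NADH dehydrogenase that receives most electrons entering the chain, was nearly level between the strains. Of 36 subunit genes, 35 were tested, 3 fell (Ndufc2, Ndufa12 and Ndufb7) and 0 rose. That is 8.57% lower and 0% higher, against 13.7% and 9.09% of all genes tested. None of the 35 was higher at an unadjusted edgeR p under 0.05, by DESeq2 or by limma-voom. Their median log2 fold change was -0.05. The summed level of all 36 was 1939, 1772 and 1956 CPM in DBA/2 libraries, against 1971, 2010 and 1879 CPM in C57BL/6 libraries. These ranges overlap.

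None of the 6 tested core subunits of complex I passed, those of its catalytic part, and none had an unadjusted edgeR p under 0.05 or passed by DESeq2 or limma-voom. Log2 fold changes included -0.06 for Ndufs8, an iron-sulfur subunit, and 0.06 for Ndufv2, an iron-sulfur subunit of the NADH-oxidising module. Ndufv1, which holds the flavin, averaged 98.5 ± 2.76 CPM in DBA/2 and 101 ± 4.38 CPM in C57BL/6 (SD, n = 3 each). The seventh core gene, Ndufs3, was counted at almost nothing, with 2 counts in DBA/2 replicate 3 and 0 counts in every other library. At these depths a count of 0 allows up to 0.149 to 0.217 CPM, a floor that covers counting error only, and the 6 other core subunits averaged at least 39.6 CPM in DBA/2 and 41.2 CPM in C57BL/6. Only 4.04% of the exonic length of Ndufs3 overlaps another annotated gene, and why it was not counted was not tested.

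Ndufc2, an accessory subunit of the membrane arm, had the clearest fall in complex I. It was at 47.0, 41.8 and 47.6 CPM in DBA/2 libraries, against 71.3, 68.2 and 64.1 CPM in C57BL/6 libraries. The strains were well apart, with a log2 fold change of -0.58 (standard error 0.07, edgeR adjusted p = 2.87e-07), and the value stayed between -0.62 and -0.52 in 17 alternative fits. Per exonic length it was among the more abundant complex I genes, at 60.7 ± 4.11 FPKM in DBA/2 and 89.1 ± 4.46 FPKM in C57BL/6 (SD, n = 3 each). FPKM are counts scaled to library total and to the exonic length listed for the gene, not to the length of 1 transcript. Rankings per length, here and below, depend on that listed length.

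Ndufb7, an accessory subunit at the distal end of the membrane arm, was at the edge of the threshold. It had 34.1, 31.0 and 36.2 CPM in DBA/2 libraries and 38.6, 42.9 and 36.0 CPM in C57BL/6 libraries. The highest DBA/2 library lay above the lowest C57BL/6 library, and the log2 fold change was -0.21 (standard error 0.08, edgeR adjusted p = 0.0498). It did not pass in 13 of 17 alternative fits. In 4 of these a library was left out, with an edgeR adjusted p of 0.091 without DBA/2 replicate 1, 0.204 without DBA/2 replicate 2, 0.0995 without C57BL/6 replicate 1 and 0.257 without C57BL/6 replicate 2. Just outside the threshold was Ndufa7, an accessory subunit of the peripheral arm, at -0.18 (edgeR adjusted p = 0.0674).

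The 2 complex I genes of highest level per length did not pass. Ndufb9, an accessory subunit of the membrane arm, was at 130 ± 12.1 FPKM in DBA/2 and 136 ± 6.37 FPKM in C57BL/6, and Ndufa6, of the peripheral arm, at 96.3 ± 7.62 FPKM in DBA/2 and 91.4 ± 4.84 FPKM in C57BL/6 (SD, n = 3 each). Log2 fold changes of the 29 accessory subunits ran from -0.84 for Ndufa12 to 0.11 for the X-linked Ndufa1.

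Complex II, succinate dehydrogenase, is shared with the citric acid cycle. Of its 4 genes, Sdhc fell and 0 rose, or 25% lower and 0% higher, against 13.7% and 9.09% of all genes tested. None was higher at an unadjusted edgeR p under 0.05, by DESeq2 or by limma-voom. Sdhc, a membrane anchor that helps bind haem and quinone, had 49.6, 47.2 and 58.0 CPM in DBA/2 libraries, against 74.2, 70.9 and 68.5 CPM in C57BL/6 libraries. The strains did not overlap, and the log2 fold change was -0.47 (standard error 0.07, edgeR adjusted p = 1.67e-05). Its partner anchor Sdhd averaged 64.9 ± 3.97 CPM in DBA/2 and 65.3 ± 2.56 CPM in C57BL/6 (SD, n = 3 each), with a log2 fold change of -0.01. Sdha, the flavoprotein, had a log2 fold change of 0.02 and Sdhb, the iron-sulfur protein, one of -0.10, and neither passed.

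Complex III, the cytochrome bc1 complex, had 8 members, of which Uqcrc1 and Uqcrb rose and 0 fell. That is 25% higher and 0% lower, against 9.09% and 13.7% of all genes tested. None was lower at an unadjusted edgeR p under 0.05, by DESeq2 or by limma-voom. Cytochrome c1 (Cyc1), outside the symbol patterns, is given below with the electron carriers. Uqcrc1, a core protein facing the matrix, had 8.34, 9.95 and 14 CPM in DBA/2 libraries, against 5, 4.3 and 4.54 CPM in C57BL/6 libraries. Every DBA/2 library was above every C57BL/6 library, although DBA/2 replicate 3 stood well above the other 2. The log2 fold change was 1.21 (standard error 0.17, edgeR adjusted p = 2.01e-05), and it ranged from 0.77 to 1.37 in 17 alternative fits.

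The level of Uqcrc1 was low for its place in the complex. It had 2.62 ± 0.710 FPKM in DBA/2 and 1.10 ± 0.0808 FPKM in C57BL/6, while the other core protein, Uqcrc2, had 73.9 ± 2.67 FPKM in DBA/2 and 69.3 ± 1.5 FPKM in C57BL/6 (SD, n = 3 each). Why Uqcrc1 was counted so far below its partner was not tested, so its fold change describes the few reads that were assigned to it.

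Uqcrb, the ubiquinone-binding subunit, had 52.7, 49.1 and 49.2 CPM in DBA/2 libraries, against 40.4, 40.1 and 45.1 CPM in C57BL/6 libraries. The strains did not overlap, and the log2 fold change was 0.26 (standard error 0.07, edgeR adjusted p = 0.00467). Reads of Uqcrb could be shared with the processed copies Gm2962 and Gm16089, and with these summed the value was 0.26 (edgeR adjusted p = 0.00335). The 2 complex III genes of highest level per length did not pass, Uqcr10, a small subunit, with a log2 fold change of 0.00 after rounding and Uqcrfs1, the Rieske iron-sulfur protein, with -0.06.

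Complex IV, cytochrome c oxidase, held the largest difference. Of 19 genes, 15 were tested, Cox5a rose, and Cox7c, Ndufa4l2, Cox6a2 and Cox8a fell, 6.67% of those tested higher and 26.7% lower, against 9.09% and 13.7% of all genes tested. The summed level of all 19 was 1558, 1393 and 1562 CPM in DBA/2 libraries and 1631, 1667 and 1506 CPM in C57BL/6 libraries, which overlap.

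Cox7c, a small subunit present in all tissues, had 12, 10.3 and 12.5 CPM in DBA/2 libraries, against 41.2, 43.3 and 38.9 CPM in C57BL/6 libraries. The gap between the strains was far wider than the spread within them, with a log2 fold change of -1.83 (standard error 0.09, edgeR adjusted p = 9.54e-14). Per length this was 10.3 ± 0.999 FPKM in DBA/2 and 36.0 ± 1.85 FPKM in C57BL/6 (SD, n = 3 each). Cox7c lies at chr13:86044816-86046904 on the minus strand (GRCm38), and its copy Gm10012 shared 233 aligned bases at 99.6% identity. That copy had 0.235 to 0.707 CPM in DBA/2 and 0.219 to 0.482 CPM in C57BL/6, and the sum of both genes gave -1.78 (edgeR adjusted p = 1.18e-13). Other copies with fewer than 10 counts or under 95% identity were not part of such sums, and reads placed on unannotated sequence were not measured.

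Cox8a, the subunit VIII gene of most tissues, was the most abundant member per length, at 565 ± 47.1 FPKM in DBA/2 and 633 ± 39.2 FPKM in C57BL/6 (SD, n = 3 each). Its libraries had 317, 275 and 324 CPM in DBA/2, against 352, 369 and 325 CPM in C57BL/6, so the strains all but touched. The log2 fold change was -0.19 (standard error 0.06, edgeR adjusted p = 0.0347). It did not pass without DBA/2 replicate 2 (edgeR adjusted p = 0.117), without C57BL/6 replicate 1 (0.101) or without C57BL/6 replicate 2 (0.14), and its value was then between -0.18 and -0.12.

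Cox5a, which binds thyroid hormone metabolites in work on cattle, had 78.7, 80.7 and 80.9 CPM in DBA/2 libraries, against 72.3, 72.4 and 64.8 CPM in C57BL/6 libraries. The strains did not overlap, but C57BL/6 replicate 3 stood below its group. The log2 fold change was 0.20 (standard error 0.06, edgeR adjusted p = 0.0143), and without C57BL/6 replicate 3 it was 0.15 and did not pass (edgeR adjusted p = 0.113). It also did not pass without both C57BL/6 libraries with Xist counts (edgeR adjusted p = 0.378).

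Complex IV is the complex in which several subunits have alternative genes for particular tissues, and the widespread forms made up nearly all of its transcripts. Cox4i1 had 176 ± 8.70 FPKM in DBA/2 and 175 ± 4.34 FPKM in C57BL/6, while Cox4i2, the lung form, had 0.873 ± 0.276 FPKM in DBA/2 and 1.14 ± 0.386 FPKM in C57BL/6 (SD, n = 3 each). Cox6b1 had 123 ± 10.4 FPKM in DBA/2 and 118 ± 2.61 FPKM in C57BL/6, while the testis form Cox6b2 had 2.17 ± 0.686 FPKM in DBA/2 and 1.87 ± 0.786 FPKM in C57BL/6 (SD, n = 3 each). None of these 4 passed the test. Cox7a2, Cox7b, Cox6a1 and Ndufa4 also did not pass, with log2 fold changes of -0.06, 0.05, -0.09 and -0.07.

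Another 4 alternative forms had too few counts to be tested. Cox7a1, the muscle form of subunit VIIa, had 3 to 13 counts in DBA/2 libraries and 4 to 10 counts in C57BL/6 libraries. Cox8b, the heart and muscle form of subunit VIII, had 3 to 8 counts in DBA/2 libraries and 0 to 4 counts in C57BL/6 libraries. The testis forms Cox7b2 and Cox8c had 3 to 8 and 0 to 1 counts in DBA/2 libraries, and 1 to 6 and 0 counts in C57BL/6 libraries.

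Among the alternative forms that were tested, 2 of low level fell in DBA/2. Cox6a2, the heart and muscle form of subunit VIa, which in mouse brain is known from fast-spiking interneurons, had 2.64, 1.59 and 1.30 CPM in DBA/2 libraries, against 3.49, 3.06 and 2.94 CPM in C57BL/6 libraries. The strains did not overlap, and the log2 fold change was -0.76 (standard error 0.25, edgeR adjusted p = 0.0294). The edgeR adjusted p was 0.119 without DBA/2 replicate 2, 0.129 without DBA/2 replicate 3, 0.113 without C57BL/6 replicate 1 and 0.0523 without C57BL/6 replicate 2. By DESeq2's Wald test Cox6a2 did not pass (adjusted p = 0.129), nor by limma on log2 FPKM with a pseudocount of 0.1 (adjusted p = 0.051). Without the C57BL/6 libraries with Xist counts its log2 fold change was -0.71, and it did not pass. The summed level of 7 fast-spiking interneuron markers was 783 to 877 CPM in DBA/2 and 849 to 867 CPM in C57BL/6. Gad1, Kcnc1 and Kcnc2 made up most of that sum, and Gad1 is also among the neuron markers. Of the 7, Syt2 fell (14.3%, against 13.7% of all genes tested). The summed level of 8 skeletal muscle markers was 7.49 to 7.93 CPM in DBA/2 and 6.74 to 7.22 CPM in C57BL/6. That sum was above the level of Cox6a2 itself, but Acta1 alone averaged 4.72 CPM of it in DBA/2 and 3.53 CPM in C57BL/6. Of the 8 markers, 6 averaged under 1 CPM. Of the 3 that were tested, Actn3 fell with a log2 fold change of -0.92 (edgeR adjusted p = 0.0496). That call was lost without any 1 of the 6 libraries (edgeR adjusted p from 0.0629 to 0.208). Mylpf and Acta1 went the other way, at 1.14 and 0.41, and did not pass (edgeR adjusted p = 0.0562 and 0.101). The part of either cell type in the fall of Cox6a2 was not tested.

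Ndufa4l2, a paralogue of Ndufa4 that is induced by low oxygen, had 0.881, 1.24 and 0.937 CPM in DBA/2 libraries, against 2.17, 1.82 and 2.14 CPM in C57BL/6 libraries. No library overlapped between the strains, and the log2 fold change was -1.0 (standard error 0.28, edgeR adjusted p = 0.0108). By DESeq2 it did not pass (adjusted p = 0.0867), nor without the C57BL/6 libraries with Xist counts (edgeR adjusted p = 0.321). Ndufa4 itself, now assigned to complex IV, was at 114 ± 4.56 FPKM in DBA/2 and 118 ± 9.84 FPKM in C57BL/6 (SD, n = 3 each).

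**Figure D3:**
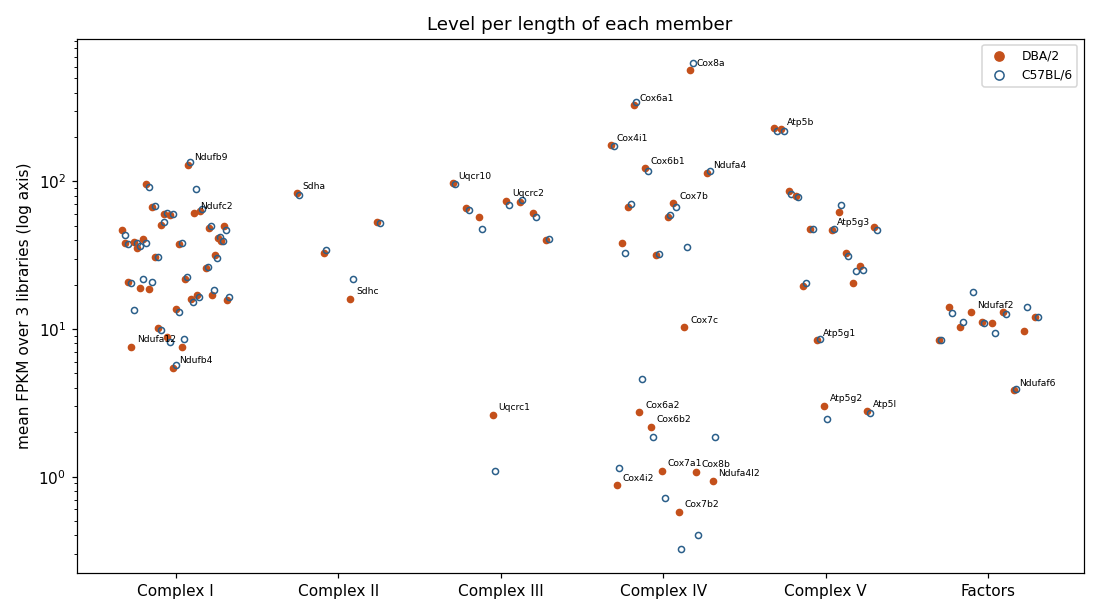
Mean level per length (FPKM, log axis) of the members by complex, filled for DBA/2 and open for C57BL/6; Ndufs3 and Cox8c, at or near 0, are not drawn. Levels reach 565 FPKM in DBA/2 and 633 FPKM in C57BL/6 for Cox8a, and the tissue forms of complex IV, Uqcrc1 and Ndufa4l2 are among the lowest.

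ATP synthase, complex V, had 15 genes, of which Atp5j2 and Atp5h fell and 0 rose. That is 13.3% lower and 0% higher, against 13.7% and 9.09% of all genes tested. None was higher at an unadjusted edgeR p under 0.05, by DESeq2 or by limma-voom. The catalytic core did not pass. Atp5b, the beta subunit that holds the catalytic sites, averaged 949 ± 8.34 CPM in DBA/2 and 935 ± 36.3 CPM in C57BL/6 (SD, n = 3 each), with a 95% interval of the log2 fold change from -0.07 to 0.11. Atp5a1, the alpha subunit, averaged 712 ± 20.2 CPM in DBA/2 and 695 ± 24.6 CPM in C57BL/6 (SD, n = 3 each), with an interval from -0.06 to 0.13. The summed level of all 15 genes was 2760 ± 81.9 CPM in DBA/2 and 2752 ± 95.7 CPM in C57BL/6 (SD, n = 3 each).

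Both genes that fell belong to the membrane or stalk part. Atp5j2, subunit f of the membrane sector, had 69.9, 59.8 and 73.2 CPM in DBA/2 libraries, against 84.1, 85.6 and 78.5 CPM in C57BL/6 libraries. The strains did not overlap, the log2 fold change was -0.29 (standard error 0.07, edgeR adjusted p = 0.00255), and it passed in all 17 alternative fits.

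Atp5h, subunit d of the peripheral stalk, had 90.1, 86.0 and 94.3 CPM in DBA/2 libraries, against 103, 105 and 100 CPM in C57BL/6 libraries. Again the strains were apart, and the log2 fold change was -0.18 (standard error 0.05, edgeR adjusted p = 0.0132). Its copies Gm10250 and Gm14472 could share reads, and with them summed the value was -0.13 and did not pass (edgeR adjusted p = 0.0784). The edgeR adjusted p was also 0.0617 without DBA/2 replicate 2, 0.0506 without C57BL/6 replicate 1, 0.0569 without C57BL/6 replicate 2 and 0.128 without the C57BL/6 libraries with Xist counts.

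The c ring of the enzyme is made from 3 genes that encode the same mature protein, and Atp5g3 was the highest of them in both strains. It had 47.0 ± 2.56 FPKM in DBA/2 and 47.9 ± 0.457 FPKM in C57BL/6 (SD, n = 3 each). Atp5g1 had 8.39 ± 0.206 FPKM in DBA/2 and 8.57 ± 0.836 FPKM in C57BL/6, and Atp5g2 had 3.03 ± 0.405 FPKM in DBA/2 and 2.45 ± 0.449 FPKM in C57BL/6 (SD, n = 3 each). The gap is narrower in CPM, since the listed exonic length is 4912 bases for Atp5g1 and 2181 for Atp5g3. Atp5g3 averaged 102 CPM in DBA/2 and 106 CPM in C57BL/6, and Atp5g1 40.9 and 42.5 CPM. None passed, and reads of Atp5g1 could be shared with Gm10039, which was about as high, at 45.7 ± 4.42 CPM in DBA/2 and 41.4 ± 3.24 CPM in C57BL/6 (SD, n = 3 each). Summed with Gm10039, Atp5g1 averaged 86.7 ± 3.84 CPM in DBA/2 and 83.8 ± 6.67 CPM in C57BL/6 (SD, n = 3 each).

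Of the 10 assembly and associated factors, which are not structural subunits, Ndufaf4 rose and Ndufaf7 and Ndufaf2 fell. That is 10% higher and 20% lower, against 9.09% and 13.7% of all genes tested. Ndufaf7, a methyltransferase needed for complex I assembly, had 22.1, 21.2 and 23.4 CPM in DBA/2 libraries, against 31.4, 33.5 and 32.9 CPM in C57BL/6 libraries. The strains were well apart, with a log2 fold change of -0.55 (standard error 0.08, edgeR adjusted p = 5.58e-06).

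Ndufaf2, a chaperone of late complex I assembly and a paralogue of Ndufa12, had 8.28, 9.54 and 8.57 CPM in DBA/2 libraries, against 12.8, 11.6 and 12.1 CPM in C57BL/6 libraries. Each DBA/2 library was on the same side of each C57BL/6 library, and the log2 fold change was -0.47 (standard error 0.12, edgeR adjusted p = 0.00429). Another annotated gene covers 65.6% of its exonic length, and reads from the pair could not be told apart if strand was not used in counting. Without the C57BL/6 libraries with Xist counts it did not pass (edgeR adjusted p = 0.215).

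Ndufaf4, an early complex I assembly factor, had 41.7, 43.4 and 42.3 CPM in DBA/2 libraries, against 37.8, 37.5 and 36.0 CPM in C57BL/6 libraries. There was no overlap, and the log2 fold change was 0.20 (standard error 0.06, edgeR adjusted p = 0.0285). By DESeq2 the adjusted p was 0.102. In edgeR the adjusted p was 0.0758 without DBA/2 replicate 2, 0.0522 without C57BL/6 replicate 1, 0.057 without C57BL/6 replicate 2, 0.136 without C57BL/6 replicate 3 and 0.359 without the C57BL/6 libraries with Xist counts.

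**Figure D4:**
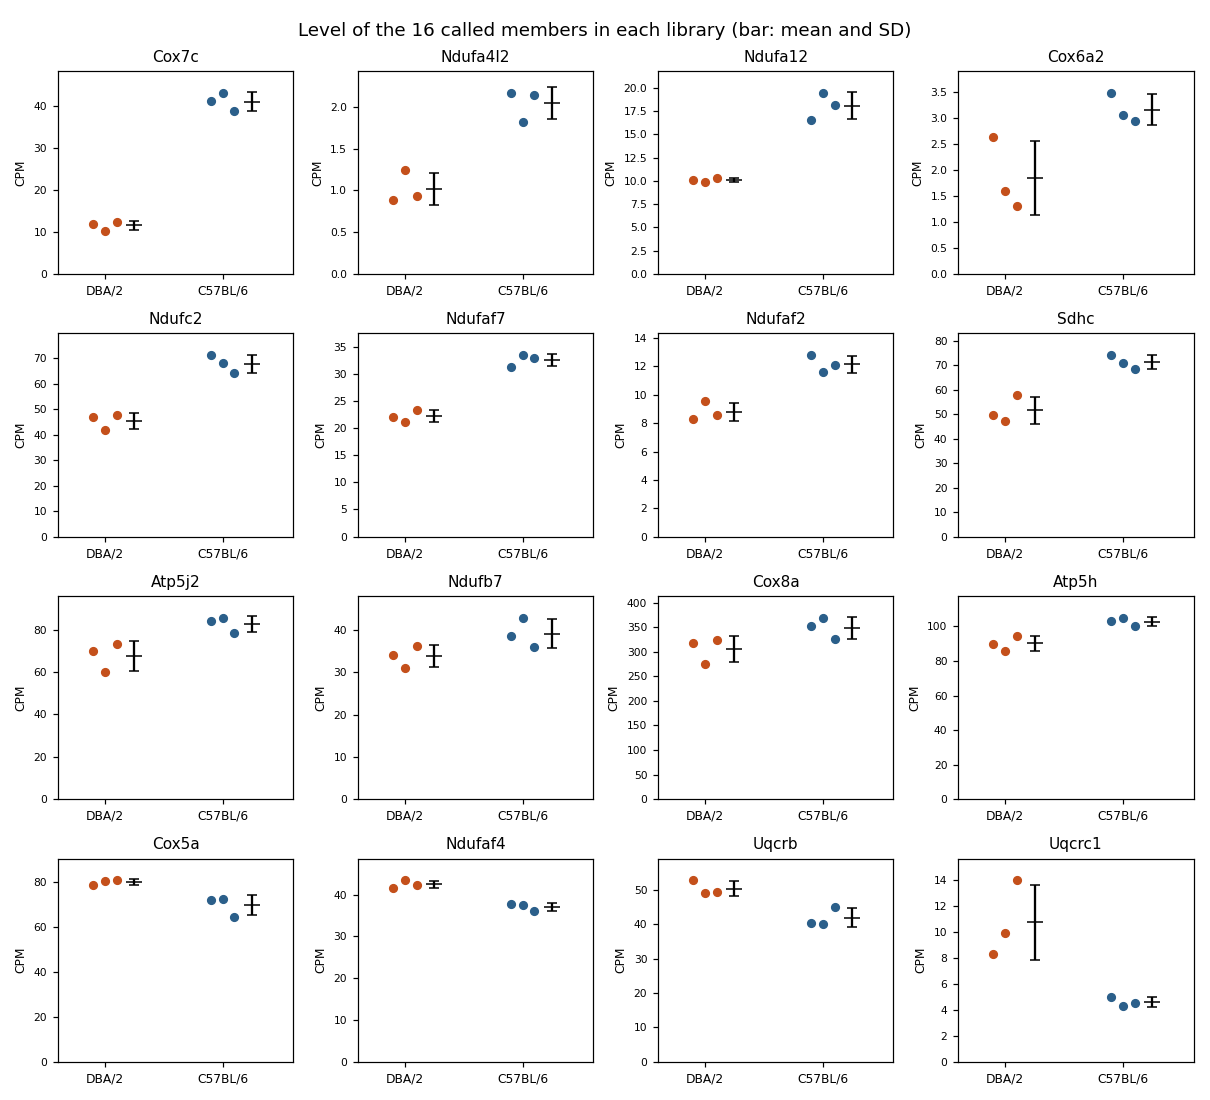
Level in CPM (y axes, from 0) of the 16 members with an adjusted p under 0.05 in each library, DBA/2 left of C57BL/6, with the mean and SD of 3 libraries beside the points. The strains are far apart for Cox7c and close for Cox8a and Ndufb7.

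Leaving out 1 library at a time, 10 of these 16 members passed each time, and 7 passed in every alternative fit that gave a p-value. The 7 are Cox7c, Ndufc2, Ndufaf7, Sdhc, Atp5j2, Uqcrb and Uqcrc1. The count of members higher in DBA/2 was 2 without C57BL/6 replicate 3, the members then being Uqcrc1 and Uqcrb. The count lower in DBA/2 was 8 without DBA/2 replicate 2, 8 without C57BL/6 replicate 1, 8 without C57BL/6 replicate 2 and 13 without C57BL/6 replicate 3.

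Within each strain, members varied together between libraries. DBA/2 replicate 2 was the lowest library of its strain for 70 of 87 tested members (80.5%), and C57BL/6 replicate 3 was the lowest of its strain for 64 (73.6%). Over all genes tested these shares were 34.0% and 32.2%. In complex I, DBA/2 replicate 2 was lowest for 33 of 35 subunits (94.3%). The pattern was not particular to these genes, since DBA/2 replicate 2 was lowest for 83.8% of 80 cytosolic ribosomal protein genes. Members are short, with a median exonic length of 1550 bases against 3779 for all genes tested. Among 629 other tested genes of 500 to 2000 bases and 20 to 500 CPM, DBA/2 replicate 2 was lowest for 69.0% and C57BL/6 replicate 3 for 59.0%. The part of transcript length or RNA quality in this pattern was not tested.

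**Figure D5:**
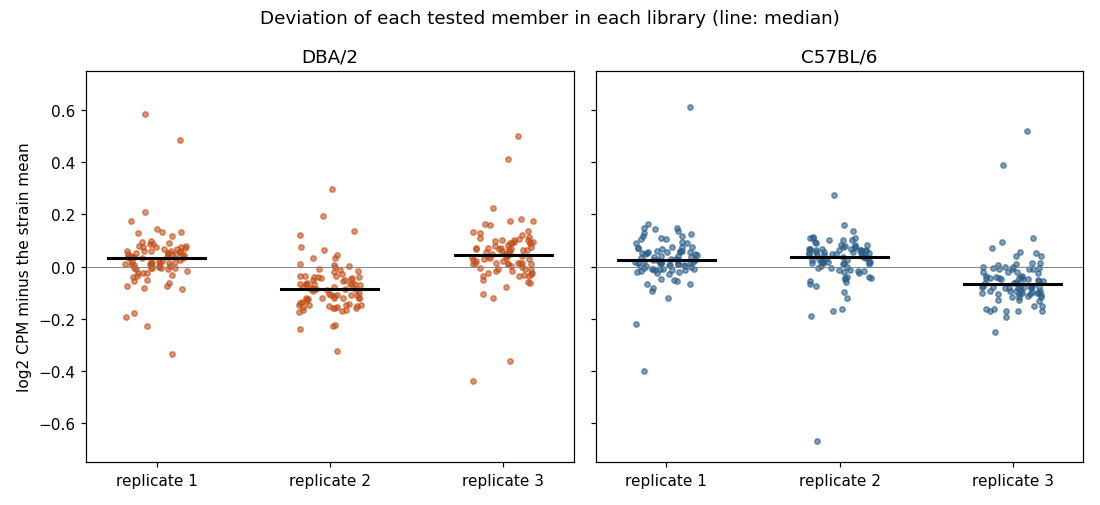
Deviation of each tested member's log2 CPM from its strain mean (y axis) in the 3 DBA/2 libraries, left, and the 3 C57BL/6 libraries, right, with the median as a black line. Points of DBA/2 replicate 2 and of C57BL/6 replicate 3 lie mostly below 0, where these libraries were lowest for 70 and 64 of 87 members.

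Summed over all 92 members the level was 7609, 7126 and 7715 CPM in DBA/2 libraries, against 7801, 7802 and 7333 CPM in C57BL/6 libraries. The strains overlapped, with a ratio of 0.979 in DBA/2 over C57BL/6. Transcripts of the 13 subunits encoded by the mitochondrial genome summed to 42995, 40746 and 42744 CPM in DBA/2 libraries, against 49189, 48055 and 48659 CPM in C57BL/6 libraries. These did not overlap, with a ratio of 0.867. Of the 13, 5 fell (mt-Nd5, mt-Nd6, mt-Cytb, mt-Co1 and mt-Nd4), or 38.5% against 13.7% of all genes tested, and 0 rose in edgeR. At an unadjusted edgeR p under 0.05 and by DESeq2, 3 were higher, and 0 by limma-voom. The highest log2 fold changes were 1.06 for mt-Atp6, 0.99 for mt-Co2 and 0.96 for mt-Co3, none of which passed. These 3 averaged only 52.2, 102 and 56.7 CPM in DBA/2 and 25.2, 51.4 and 29.3 CPM in C57BL/6. By contrast, mt-Co1 averaged 18794 CPM in DBA/2 and 21416 CPM in C57BL/6, so it weighs heavily in the sum. Near-identical copies that could share reads were found for mt-Atp6, mt-Co2, mt-Co3, mt-Co1 and mt-Nd4, but not for mt-Nd5, mt-Nd6 or mt-Cytb. Why mt-Atp6, mt-Co2 and mt-Co3 were counted so far below mt-Co1 was not tested. The median of the 13 was -0.04. The log2 fold change was -0.50 both for mt-Nd5 (edgeR adjusted p = 1.09e-08) and for mt-Nd6 (edgeR adjusted p = 4.03e-08). Whether the change of nuclear and of mitochondrial subunits differed was not tested.

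Other genes of the same pathway were read from the same fit. Of 47 tested assembly factors outside the symbol patterns, 2 rose (4.26%) and 10 fell (21.3%), against 9.09% and 13.7% of all genes tested. Cox11, which delivers copper to complex IV, averaged 3.36 ± 0.314 CPM in DBA/2 and 8.14 ± 1.31 CPM in C57BL/6 (SD, n = 3 each), a log2 fold change of -1.29 (edgeR adjusted p = 2.36e-06). Sdhaf1, which helps insert iron-sulfur clusters into complex II, averaged 2.25 ± 0.3 CPM in DBA/2 and 4.99 ± 0.386 CPM in C57BL/6 (SD, n = 3 each), a log2 fold change of -1.15 (edgeR adjusted p = 8.68e-05). Another 2 of these factors, Sco2 and Pet117, were listed at 0 in every library.

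Of 18 tested genes for electron carriers and coenzyme Q synthesis, 2 rose (11.1%) and 3 fell (16.7%), shares near those of all genes. Coq8a, an atypical kinase of coenzyme Q synthesis, averaged 23.7 ± 1.43 CPM in DBA/2 and 44.9 ± 5.17 CPM in C57BL/6 (SD, n = 3 each), a log2 fold change of -0.92 (edgeR adjusted p = 1.04e-08). Coq2, which attaches the side chain of coenzyme Q, averaged 41.9 ± 3.73 CPM in DBA/2 and 73.3 ± 5.96 CPM in C57BL/6 (SD, n = 3 each), a log2 fold change of -0.81 (edgeR adjusted p = 1.54e-08). Cytochrome c (Cycs) and cytochrome c1 (Cyc1), named here after their values were seen, had log2 fold changes of 0.07 and -0.01 and did not pass.

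Of 17 genes of pyruvate dehydrogenase and the citric acid cycle, Dlat, the acetyltransferase of pyruvate dehydrogenase, fell to 108 ± 3.33 CPM in DBA/2, against 129 ± 2.21 CPM in C57BL/6 (SD, n = 3 each; edgeR adjusted p = 0.000317). None of the 17 rose in edgeR, with 2 higher at an unadjusted p under 0.05 and 0 by DESeq2 and by limma-voom. The edgeR shares were 5.88% lower and 0% higher, against 13.7% and 9.09% of all genes tested. Of 24 regulators of mitochondrial gene expression, 3 rose (12.5%) and 1 fell (4.17%), against 9.09% and 13.7% of all genes tested. Polg2, the accessory subunit of the mitochondrial DNA polymerase, had a log2 fold change of 0.67 (edgeR adjusted p = 0.0226). That call was lost without DBA/2 replicate 1 (edgeR adjusted p = 0.063), without DBA/2 replicate 2 (0.0597), without C57BL/6 replicate 2 (0.101) and without C57BL/6 replicate 3 (0.0532). Mterf3, a negative regulator of mitochondrial transcription, had a log2 fold change of -0.29 (edgeR adjusted p = 0.00648), which did not pass without the C57BL/6 libraries with Xist counts (edgeR adjusted p = 0.228).

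The promoters of the members held short motifs of factors known to act on respiratory genes more often than those of all genes. RefSeq promoters (GRCm38.p6, 250 bases before to 50 after a start) were matched for 76 members and were set beside those of 27025 genes, with both strands searched. The letters TGCGCA of the NRF1 motif were in 25% of member promoters and 8.79% of all. The ETS letters CCGGAAG, read by GABP, were in 23.7% and 9.93%, and the YY1 letters ATGGCGG in 17.1% and 4.69%. The CCAAT box was in 46.1% and 41.1%, and TATAAA in 9.21% and 15.7%. Of the 12 matched members that passed the test between strains, 2 held the NRF1 letters, 3 the ETS letters and 1 the YY1 letters. These shares are a description, with no test, and a match is not a binding site. The promoter of Ndufaf4 is shown as one that holds the NRF1 letters, in capitals, just before a member that rose in DBA/2, at chr4:24897933-24898082 on the plus strand.
Ndufaf4: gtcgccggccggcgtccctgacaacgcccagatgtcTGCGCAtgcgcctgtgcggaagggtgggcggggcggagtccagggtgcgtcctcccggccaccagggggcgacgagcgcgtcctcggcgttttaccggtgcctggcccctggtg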

How the data were processed

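Per the labels and the file headers, the table deposited by the authors holds raw counts per gene as whole numbers and FPKM values. Recomputing FPKM from counts, exonic lengths and library totals gave the same values. The submitters' processing notes name Trimmomatic 0.30, HISAT2 2.0.1, Cufflinks 2.2.1 and GRCm38. No separate genome is named for DBA/2, and whether sequence differences of DBA/2 from GRCm38 changed its counts was not tested. The counting program, annotation and use of strand are not stated there or in the labels. Another 12 columns of the table belong to no labelled sample and stayed out of every step. Of the gene IDs, 99.6% are in GENCODE M21, from which coordinates come.

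Counts were fitted in edgeR 4.0.16 (R 4.3.3) with TMM factors, filterByExpr by strain and a robust quasi-likelihood F test on all 6 libraries, with Benjamini-Hochberg adjustment over 17517 genes. A gene passed at an adjusted p under 0.05. CPM use TMM factors, and log2 fold changes are DBA/2 over C57BL/6. Libraries of a strain differed by more than sampling noise (chi-square per degree of freedom 3.16 to 3.93 within strains and 13.7 to 18.6 between them).

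Near-identical genes (BLAST 2.17.0 on the longest GENCODE M21 transcripts of genes with 10 or more counts, identity of 95% or more along 200 or more bases that cover 0.5 or more of the shorter one) formed 624 families, whose counts were summed in an alternative fit. Other alternatives were DESeq2 1.42.0 (its size factors in edgeR, and its Wald test), library size alone, other filters, limma 3.58.1 (voom, and log2 FPKM with a pseudocount of 1 or 0.1), the replicate number as a block, each library left out, and structural subunits alone. Leaving out the C57BL/6 libraries with at least 100 Xist counts was added after seeing the data. Members and gene lists were chosen with earlier results of these data known. The members described are those that passed, the 2 of highest FPKM in each complex and the alternative isoform genes, and of each other pathway list the 2 genes of largest change that passed. Other members named as examples were chosen after their values were seen. The values of 1 member are not reported here, although it stays in all counts.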

Additional observations from a re-analysis of the deposited data

How the results depend on the processing

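No result reversed. Over all genes 4000 passed, and 3131 to 3717 passed with 1 library left out, 3141 by DESeq2's Wald test and 2012 without the C57BL/6 libraries with Xist counts, a fit that leaves 1 C57BL/6 library assumed to vary like the others. In that last fit 2 members were higher and 8 lower in DBA/2. With 1 library left out, 2 to 4 members were higher and 8 to 13 lower. With similar copies summed, 4 were higher and 9 lower, against 8.84% and 13.6% of all families and genes then tested. Structural subunits alone gave 3 higher and 10 lower. Of 19 named members that did not pass, 0 passed in any alternative fit. With library size alone, 46.9% of calls over all genes were higher in DBA/2, against 39.8%.

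The labels give both strains replicate numbers 1 to 3, but nothing says they mark pairs, and same-numbered libraries did not deviate together (correlations 0.153, -0.13 and -0.00127). With the replicate number as a block, 3827 genes passed, with 3 members higher and 11 lower. Depth limits what can be said of Cox7a1, Cox7b2, Cox8b and Cox8c, which had too few counts to be tested.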
